A study of Homo sapiens with 2 samples.

Results

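The transcription factors SNAI1, SNAI2, SNAI3, TWIST1, TWIST2, ZEB1, ZEB2 and PRRX1 drive or accompany epithelial-mesenchymal transition (EMT), and the accessibility of their 8 genes was read in B2B cells. B2B is the BEAS-2B line, immortalized human bronchial epithelial cells of the genotype given as WT, grown in serum-containing DMEM/F-12 medium and profiled by ATAC-seq in 2 biological replicates of 1 condition. In this assay the Tn5 transposase cuts accessible DNA, and the stretches with many of the resulting fragments are called as peaks. The 8 genes were listed by name, not by their values, and are 8 of 20033 protein-coding genes. Around each of them, from 100 kb upstream to 100 kb downstream of the gene as GENCODE 44 places it, all peaks were taken, which gave 26 of the 28735 peaks used for replicate 1 and 34 of the 36162 used for replicate 2. No second condition or cell line was analysed here, so the values describe 1 state of 1 cell line and there were no groups to test against each other.

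The Snail, Twist and ZEB factors bind E-boxes, as in the promoters of epithelial genes. The Snail and ZEB proteins are zinc finger repressors that silence E-cadherin, the Twist proteins are helix-loop-helix factors that pair with E proteins, and PRRX1 is a homeobox factor of the mesenchyme. In development they allow cells to leave an epithelial sheet, as in gastrulation and in the neural crest, and in airway epithelium their activity is known from fibrosis and carcinoma. Stromal, endothelial and some blood cells also use some of these genes, so the label of the cells was read first.

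The cells were checked against marker genes by their promoter peaks, which 52.2% of all protein-coding genes had in both replicates. Of 8 epithelial marker genes (CDH1, EPCAM, KRT5, KRT8, KRT14, KRT18, KRT19 and CLDN4) a peak at the promoter was called in both replicates for KRT18 alone, and in replicate 2 for KRT8. Of 8 mesenchymal marker genes 6 had one in both replicates (VIM, FN1, CDH2, COL1A1, SPARC and PDGFRB). THY1 had one in replicate 2 only (fold enrichment 4.30), and COL1A2 had one in neither. None of the leukocyte markers PTPRC, SPI1 and CD3E had one in either replicate, and of 4 endothelial markers KDR alone did. Promoters vary in CpG content, and over 10 groups of genes by CpG count the share with such a peak averaged 46.9% at the counts of the epithelial markers, 47.1% at those of the mesenchymal, 8.39% at those of the leukocyte and 30.1% at those of the endothelial markers. The missing leukocyte peaks were thus near what promoters so poor in CpG had in general. The promoter peaks of most epithelial markers that the label bronchial epithelial calls for were therefore missing, including those of CDH1 and EPCAM. In bulk chromatin, a site open in few cells and a site weakly open in all cells cannot be told apart.

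Fold enrichment here is the number of fragments over a peak's summit divided by the local background, each with 1 added, on a linear scale. The number of fragments came out whole for 60 of the 60 peaks at the 8 loci, within 0.01 of the deposited −log10 p. It ranged from 22 to 111 in replicate 1 and from 18 to 108 in replicate 2. Over the background found at most peaks, 1 fragment was worth 0.173 of fold enrichment in replicate 1 and 0.227 in replicate 2. No peak of the whole lists had fewer than 16 fragments in replicate 1 or 13 in replicate 2, so a site without a peak was below detection and need not be closed.

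A promoter peak was a peak that overlapped the 1 kb to either side of the transcription start site (TSS) of the canonical transcript. SNAI2, TWIST1, TWIST2, ZEB1 and PRRX1 had one in both replicates, SNAI1 had one in replicate 2 only, and SNAI3 and ZEB2 had none. That is 5 of 8 genes in both replicates, against 52.2% of all protein-coding genes, 5 of 8 in replicate 1 against 53.2%, and 6 of 8 in replicate 2 against 57.9%. Promoters with as many CpG dinucleotides as those of the 8 genes had a peak in both replicates in 63.8% of cases on average, so the count of 5 was close to that background. Within 500 bp of the TSS the count was 4, because the PRRX1 peak of replicate 1 began 0.503 kb past the TSS. Within 3 kb it was 6, because ZEB2 was then included. The share of all genes was not computed at these window sizes.

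**Figure D1:**
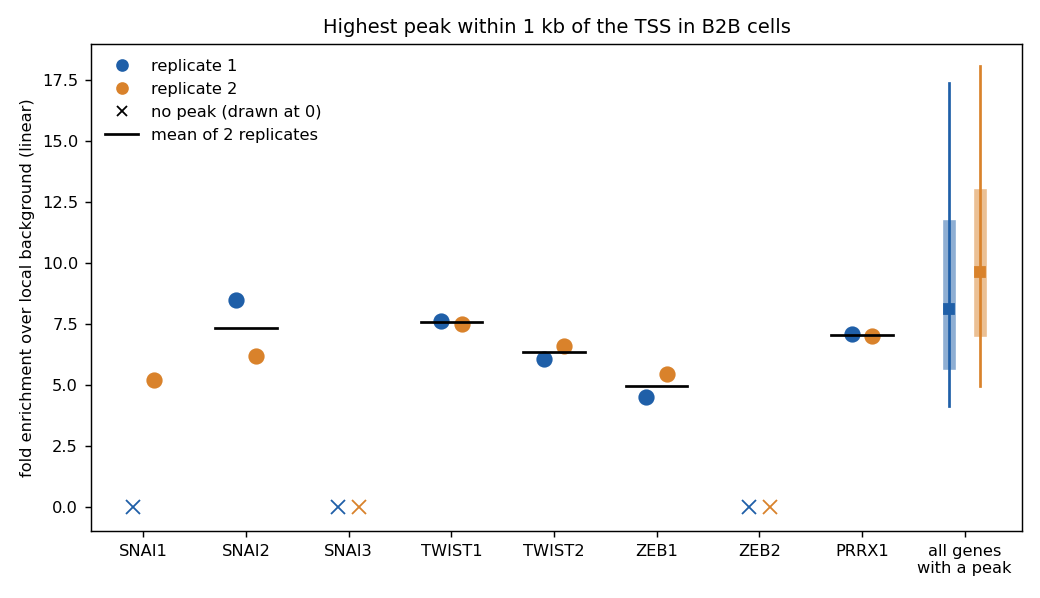
Fold enrichment of the highest peak within 1 kb of the TSS (linear axis) for each EMT factor gene, with replicate 1 in blue, replicate 2 in orange, a black line at the mean of 2 replicates, and a cross at 0 where no peak was called. At the right, squares give the median, thick bars the middle 50% and thin lines the 5th to 95th percentile of all genes with a promoter peak in both replicates. The 5 genes with peaks in both replicates had means from 4.97 to 7.57, and the medians of all such genes were 8.14 and 9.64.

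The promoter peaks of the EMT factors were modest. TWIST1 had a mean fold enrichment of 7.57 ± 0.0950 (SD, n = 2), SNAI2 of 7.33 ± 1.63, PRRX1 of 7.06 ± 0.0567, TWIST2 of 6.34 ± 0.392 and ZEB1 of 4.97 ± 0.660. In this order TWIST1 and SNAI2, SNAI2 and PRRX1, and SNAI2 and TWIST2 overlapped in their replicate values. ZEB1, at 4.50 and 5.44, lay below both values of each of the other 4. The median over all genes with a promoter peak in both replicates was 8.92, and the 5 genes stood between the 6.40 and 36.9 percentile of those genes. All of them were thus below that median.

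SNAI1, the zinc finger factor known as Snail, has 3 exons and runs along the plus strand (chromosome 20, 49982980 to 49988886 in hg38, ENSG00000124216.4), with its TSS at 49982980. Replicate 1 had no peak closer to the TSS than 44.9 kb. Replicate 2 had a peak from 49982672 to 49982996 with its summit at −175 bp from the TSS, a fold enrichment of 5.21 and 22 fragments (exact 95% Poisson interval 13.8 to 33.3, counting error only). The SNAI1 promoter is rich in CpG, with 97 in the 500 bp to either side of the TSS against a median of 66 over all genes, and of the genes in the same of 10 equal groups by CpG count, 76.3% had promoter peaks in both replicates. Of the peaks of replicate 2 with a −log10 q within 10% of this one, 43.7% overlapped a peak of replicate 1. At that strength a partner in the other replicate was thus missing more often than present.

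Downstream of SNAI1, both replicates had a pair of weak regions in intergenic DNA. At +45.1 kb replicate 1 had a fold enrichment of 5.20 and replicate 2 of 4.98, and at +47.1 kb it was 5.02 and 5.66. Replicate 2 alone had further peaks at +51.1 kb (fold enrichment 7.48) and +88.4 kb (5.66). Of these, the one at +51.1 kb was strong for a peak of a single replicate, since 86.9% of the peaks of replicate 2 with a like −log10 q overlapped a peak of replicate 1. The nearest annotated TSS to this cluster is that of the long noncoding RNA gene TRERNA1. Upstream, at −67.2 kb, a region of both replicates (6.24 and 9.06) lay at the promoter of SPATA2, whereas the promoter of RNF114, at −46.6 kb and with 83 CpG, had no peak in either replicate. The reference sequence at the replicate 1 summit of the +45.1 kb region is shown because an AP-1 motif covers that summit. The motif is TGACTCA or its reverse complement TGAGTCA, in capitals here and in every sequence. Replicate 2 had its summit at +44910 bp, outside the window shown. AP-1 is the dimer of Jun and Fos proteins that the study follows in lung cancer cells. In all 201-base windows that are shown from here on, the middle base is the summit of the region's peak with the highest −log10 p. Distances of a motif from the summit are to the motif's centre.
SNAI1 +45.1 kb, chr20:50027932-50028132, plus strand: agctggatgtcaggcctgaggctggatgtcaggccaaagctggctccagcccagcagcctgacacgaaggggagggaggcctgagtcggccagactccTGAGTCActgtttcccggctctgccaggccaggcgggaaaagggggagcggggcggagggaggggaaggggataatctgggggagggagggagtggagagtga

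SNAI2, or Slug, has 3 exons on the minus strand of chromosome 8 from 48917598 to 48921740 (ENSG00000019549.13), with its canonical TSS at 48921429. It held 3 regions of both replicates next to each other around and upstream of the TSS, with their strongest summits at −102, −538 and −2136 bp. The region at −102 bp had a fold enrichment of 4.50 in replicate 1 and 5.15 in replicate 2. At −538 bp it was 8.49 and 6.18, which correspond to 48 fragments (35.4 to 63.6) and 28 fragments (18.6 to 40.5). These intervals overlap, but they are of raw counts, not scaled for the unlike backgrounds of the replicates. At −2136 bp it was 5.72 and 6.97. The first of these lay 28 bp from the TSS of a long noncoding RNA gene (ENSG00000288761) and the second 227 bp from an upstream SNAI2 TSS. No other region of both replicates lay within the window of SNAI2. Replicate 2 alone had peaks at +51.1 kb (5.89) and +103 kb (5.21), the latter at the promoter of a noncoding RNA gene.

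SNAI3, the least studied Snail paralog, has 3 exons on the minus strand of chromosome 16 from 88677688 to 88686507 (ENSG00000185669.6). Neither replicate had a peak within 23 kb of its TSS, although the promoter holds 86 CpG. The only region of both replicates in the window was the promoter of MVD, a gene of the mevalonate pathway, 23.3 kb downstream, with a fold enrichment of 7.80 in replicate 1 and 8.84 in replicate 2. Of the 6 neighbouring protein-coding genes with a TSS in this window, MVD alone had a promoter peak in both replicates. PIEZO1 had one in replicate 2 (4.53), and IL17C, CYBA, RNF166 and CTU2 had none. RNF166, with 131 CpG and its TSS at −19.901 kb, and CTU2, with 120 CpG and its TSS at −19.996 kb, share most of their promoter windows. The absence at SNAI3 thus lay in a stretch in which this CpG-rich promoter pair had no peak either, whereas MVD, with 115 CpG, had one.

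TWIST1 has 2 exons in its canonical transcript on the minus strand of chromosome 7, with the TSS at 19117636. Its GENCODE span from 19020991 to 19117636 (ENSG00000122691.13) is 96.6 kb long because of longer annotated transcripts. It had a single region of both replicates, which covered the TSS and the first exon from 19116495 to 19118086. Replicate 1 had a fold enrichment of 7.64, with 51 fragments (38.0 to 67.1), and replicate 2 of 7.51, with 43 fragments (31.1 to 57.9), so the replicates were close. At 1592 bp the region was wider than 99.8% of all regions of both replicates, whose median was 399 bp. The summits lay 39 bp past the TSS in replicate 1 and 329 bp past it in replicate 2, inside exon 1. No other region of both replicates lay within 100 kb of the gene. Replicate 2 alone had a peak at +143 kb (6.12), inside the neighbouring gene HDAC9. The promoter of FERD3L, at −27.8 kb, had no peak. The last bases before the TWIST1 TSS, which lie inside the region and hold none of the motifs searched, are shown as the promoter part that is free of UTR.
TWIST1 promoter, chr7:19117637-19117697, minus strand: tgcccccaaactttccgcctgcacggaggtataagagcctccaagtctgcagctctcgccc

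TWIST2 has 2 exons and also runs along the plus strand (chromosome 2, 238848032 to 238910534, ENSG00000233608.5), with its TSS at 238848085. Its promoter region ran from 238847859 to 238848819. Replicate 1 had 2 peaks there, with summits at −83 bp (fold enrichment 6.06) and +629 bp (4.16), and a further peak of its own at +1241 bp (3.98). Replicate 2 had 1 peak, with its summit at −64 bp (6.62). The strongest region of all 8 windows lay in intron 1 of TWIST2, 16.3 kb past the TSS, from 238864151 to 238864901. The values there were 18.0 in replicate 1 and 15.9 in replicate 2 (fold enrichment), with 111 fragments (91.3 to 134) and 94 fragments (76.0 to 115). With a mean of 16.9 ± 1.5 (SD, n = 2) it was among the top 2.36% of the 11631 distal regions of both replicates, and its replicate values were above both promoter values of TWIST2 by more than the replicates differed. Distal means that the summit lay over 1 kb from the TSS of any annotated transcript. At +155 kb, in intergenic DNA 63.8 kb from the nearest TSS of HDAC4, a weak region had fold enrichments of 4.68 and 6.34. The sequences of the promoter, cut before the UTR, and of the intronic summit are shown. The second holds an AP-1 motif that covers the replicate 1 summit, and the first holds none.
TWIST2 promoter, chr2:238847902-238848031, plus strand: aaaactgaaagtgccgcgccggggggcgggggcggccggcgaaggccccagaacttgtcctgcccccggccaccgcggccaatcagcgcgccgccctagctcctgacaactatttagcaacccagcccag
TWIST2 +16.3 kb, chr2:238864314-238864514, plus strand: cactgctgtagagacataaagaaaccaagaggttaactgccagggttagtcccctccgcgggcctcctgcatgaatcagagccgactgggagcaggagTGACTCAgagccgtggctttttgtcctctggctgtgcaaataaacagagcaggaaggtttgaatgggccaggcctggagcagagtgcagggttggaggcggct

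ZEB1 has 9 exons in its canonical transcript on the plus strand (chromosome 10, 31318495 to 31529814, ENSG00000148516.23), with the TSS at 31319216. Its promoter peak was the weakest of the 5, with a fold enrichment of 4.50 in replicate 1, from 25 fragments (16.2 to 36.9), and 5.44 in replicate 2, from 23 fragments (14.6 to 34.5). The summits lay 416 and 418 bp past the TSS, in intron 1 and 57 bp from the TSS of the antisense gene ZEB1-AS1, so the peak cannot be assigned to 1 of the pair. Within the remaining gene body of 211 kb neither replicate had a peak. The other region of the window, 284 kb past the TSS and 133 bp from the TSS of a noncoding RNA gene (ENSG00000223834), was strong in both replicates, at 14 and 14.8. ZEB1 therefore had no distal region of both replicates in its window, and neither did TWIST1 or SNAI3. The ZEB1 promoter window is shown as the weakest of the 5. It holds 23 CpG and no AP-1 motif.
ZEB1 promoter, chr10:31319534-31319734, plus strand: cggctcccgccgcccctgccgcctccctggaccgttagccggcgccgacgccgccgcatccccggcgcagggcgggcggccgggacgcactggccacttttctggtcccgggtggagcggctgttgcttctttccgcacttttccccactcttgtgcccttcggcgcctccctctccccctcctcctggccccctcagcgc

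**Figure D2:**
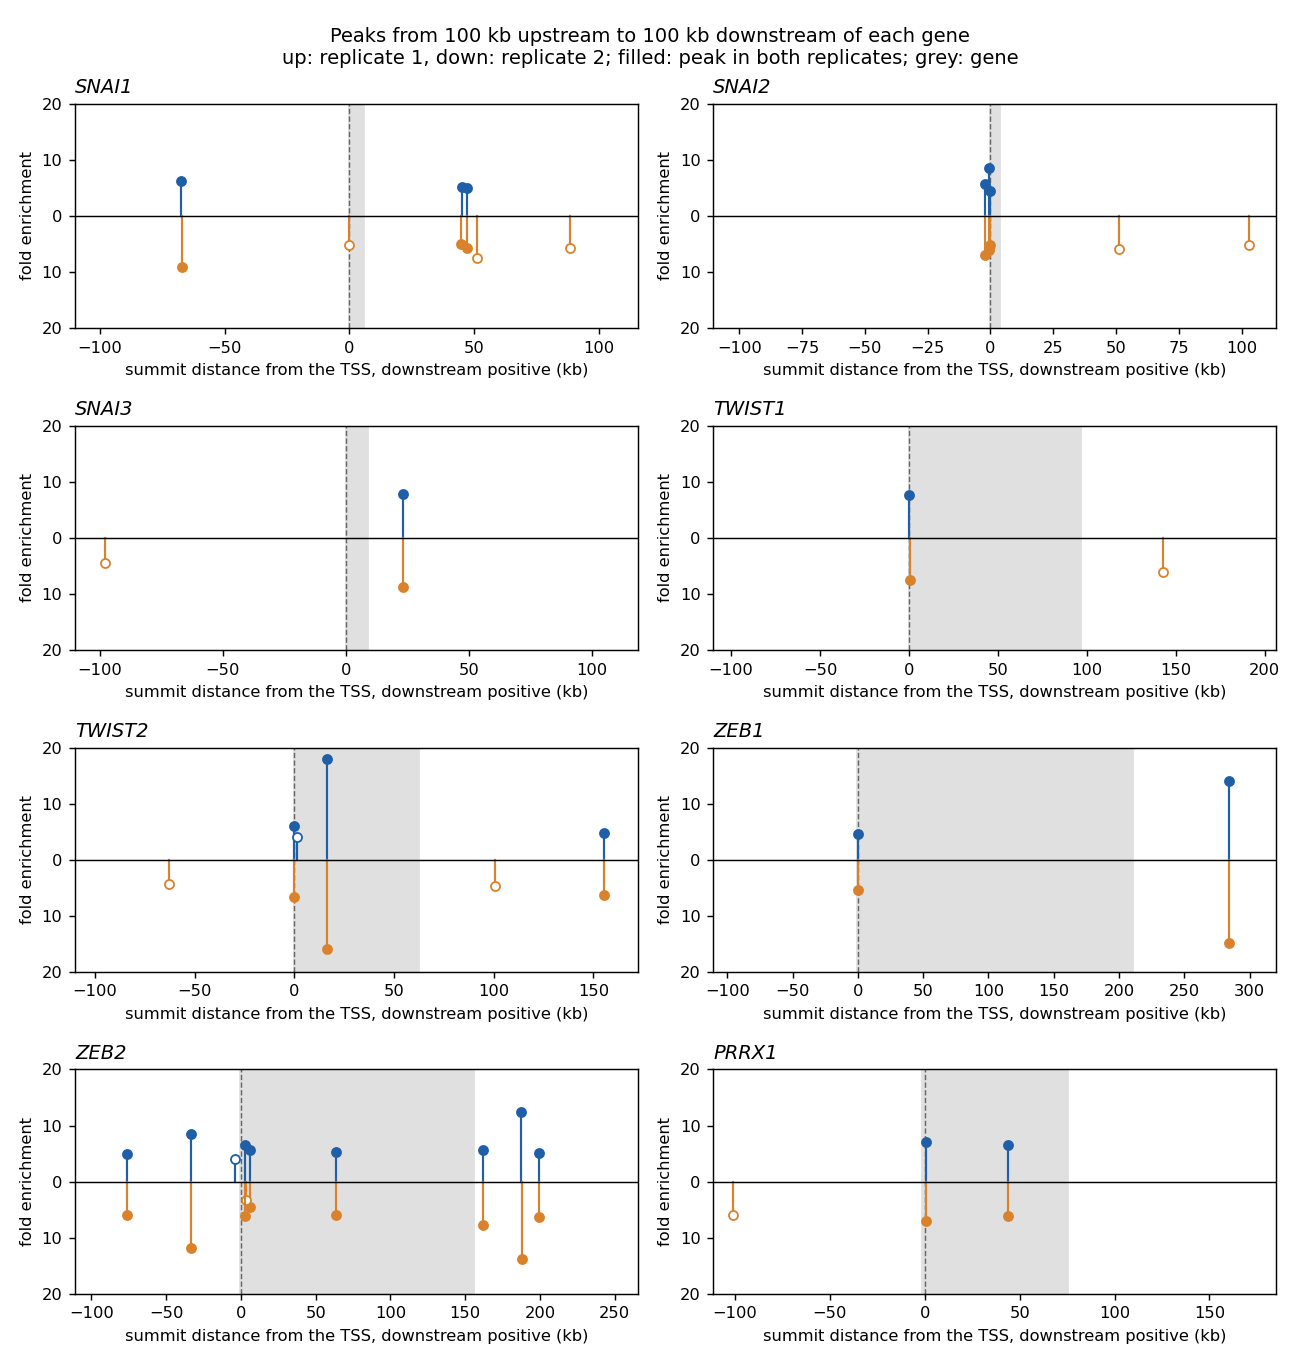
Strongest peak of each replicate per region around each EMT factor gene, by the distance of the summit from the canonical TSS in kb. Downstream is to the right, the gene is in grey, and fold enrichment is on a linear axis (replicate 1 upward in blue, replicate 2 downward in orange). Filled circles mark regions shared by the replicates. TWIST2 showed the tallest peak, 16.3 kb inside the gene, ZEB2 the most regions, and SNAI3 and TWIST1 a single filled region each.

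ZEB2 differed from ZEB1 in its layout. The gene lies on the minus strand of chromosome 2 from 144364364 to 144521057 (ENSG00000169554.23), has 10 exons in its canonical transcript and 46 annotated TSS positions, against 21 for ZEB1. No peak lay within 1 kb of the canonical TSS at 144520119, whose surroundings are poor in CpG, with 32, and of the genes in the same CpG group 21.0% had a promoter peak. The nearest region of both replicates lay at +2.43 kb, 32 bp from an internal ZEB2 TSS, with a fold enrichment of 6.55 in replicate 1 and 6.19 in replicate 2. A second, at +6.21 kb and 545 bp from another internal TSS, had 5.66 and 4.56. Replicate 2 alone had a peak between them at +3.14 kb (3.31). With any annotated TSS in place of the canonical one, ZEB2 therefore counted as a gene with a promoter peak.

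With 8 regions of both replicates, the window of ZEB2 held more than that of any other EMT factor, where the number was 1 to 3, although at 357 kb it was shorter than the 411 kb of ZEB1. Of the 8, 4 were distal. Among all protein-coding genes, 90.8% had fewer distal regions in such a window and 87.8% had a lower density of them. The strongest of the 4 at ZEB2 lay at −33.4 kb, within the noncoding RNA gene LINC01412, with a fold enrichment of 8.49 in replicate 1 (48 fragments, 35.4 to 63.6) and 11.8 in replicate 2 (51 fragments, 38.0 to 67.1). The others lay at −76.3 kb (4.85 and 5.89), at +63.4 kb in intron 2 (5.37 and 5.89) and at +162 kb, beyond the 3′ end of the gene (5.72 and 7.70). The remaining 2 were at GTDC1, the next gene downstream, whose promoter reached 12.4 and 13.8. An AP-1 motif in the 201-base window was held by 3 of the 4 distal regions at ZEB2 and by 4 of the 6 at the other genes, against 36.6% of all distal regions. Of the regions within 1 kb of a TSS, 3 of 4 at ZEB2 and 0 of 9 at the other genes held it, against 6.80% of all such regions. The windows at −33.4 kb, −76.3 kb and +6.21 kb are shown with their motifs, and that at +63.4 kb as a distal region without one.
ZEB2 −33.4 kb, chr2:144553465-144553665, minus strand: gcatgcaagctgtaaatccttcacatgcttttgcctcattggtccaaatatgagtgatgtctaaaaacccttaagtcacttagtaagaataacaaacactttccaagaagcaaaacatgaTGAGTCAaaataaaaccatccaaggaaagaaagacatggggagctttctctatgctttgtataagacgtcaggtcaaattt
ZEB2 −76.3 kb, chr2:144596326-144596526, minus strand: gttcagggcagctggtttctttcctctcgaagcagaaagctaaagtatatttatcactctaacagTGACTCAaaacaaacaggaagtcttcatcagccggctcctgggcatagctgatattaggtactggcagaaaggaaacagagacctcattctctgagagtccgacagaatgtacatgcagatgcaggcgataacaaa
ZEB2 +6.21 kb, chr2:144513806-144514006, minus strand: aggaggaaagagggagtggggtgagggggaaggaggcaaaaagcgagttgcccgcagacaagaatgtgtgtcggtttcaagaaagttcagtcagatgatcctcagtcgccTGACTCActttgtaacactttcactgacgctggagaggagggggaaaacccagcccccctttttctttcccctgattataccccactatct
ZEB2 +63.4 kb, chr2:144456651-144456851, minus strand: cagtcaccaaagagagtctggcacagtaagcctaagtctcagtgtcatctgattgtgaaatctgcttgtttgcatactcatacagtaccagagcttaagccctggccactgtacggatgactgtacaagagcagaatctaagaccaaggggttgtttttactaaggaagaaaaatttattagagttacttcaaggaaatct

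PRRX1 occupies 76.7 kb of the plus strand (chromosome 1, 170662728 to 170739421, ENSG00000116132.12), with 4 exons in its canonical transcript and the TSS at 170664131. Its promoter region began past the TSS, in intron 1, from 170664450 to 170665091, with the summit at +683 bp in replicate 1 and +703 bp in replicate 2. The fold enrichment was 7.1 and 7.02, the smallest replicate difference in fold enrichment among the 5 promoters. It came from 40 fragments (28.6 to 54.5) and 30 fragments (20.2 to 42.8). A second region in the same intron, at +44.1 kb, had 6.58 and 6.12. It was narrow, at 166 bp, and held an AP-1 motif at −49 bases from the summit. Replicate 2 alone had a peak at −101 kb (5.89). The promoter and intronic windows are both shown, the first with 17 CpG and none of the motifs, the second with 1 CpG and AP-1.
PRRX1 +0.683 kb, chr1:170664714-170664914, plus strand: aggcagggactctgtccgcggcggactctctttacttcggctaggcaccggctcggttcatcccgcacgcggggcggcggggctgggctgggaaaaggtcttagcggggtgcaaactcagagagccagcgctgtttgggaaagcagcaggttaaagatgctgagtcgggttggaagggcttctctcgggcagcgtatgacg
PRRX1 +44.1 kb, chr1:170708116-170708316, plus strand: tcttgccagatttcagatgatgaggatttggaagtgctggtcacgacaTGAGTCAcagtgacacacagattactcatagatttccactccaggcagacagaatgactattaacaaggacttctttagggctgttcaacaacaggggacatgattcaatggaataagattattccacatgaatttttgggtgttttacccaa

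Over all 8 windows, which span 2.22 Mb, the peaks merged into 36 regions, of which 23 held a peak of each replicate, 11 were of replicate 2 alone and 2 of replicate 1 alone. The share found in replicate 2 alone was 30.6%, against 26.8% of all 37661 regions. Of the 23 regions, 15 had a higher fold enrichment in replicate 2, which is 65.2% against 74.7% of all regions of both replicates. The ratio of replicate 2 to replicate 1 ranged from 0.728 to 1.45 with a median of 1.11, against a median of 1.17 over all regions.

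**Figure D3:**
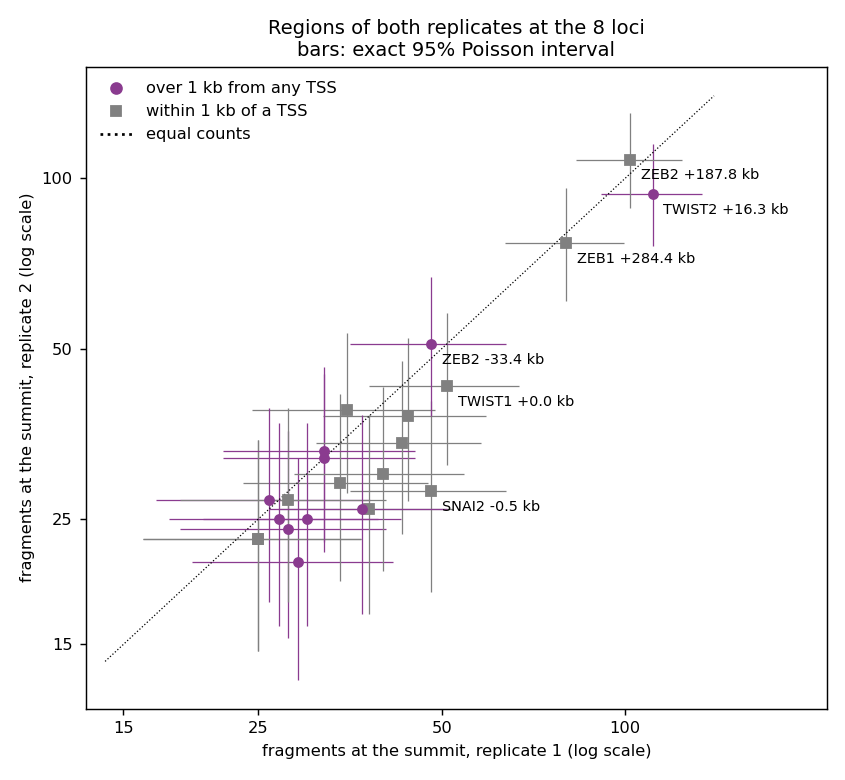
Fragments at the summit in replicate 1 (x) and replicate 2 (y), on log scales, for the 23 regions that the replicates share at the 8 genes (purple circles over 1 kb from any TSS, grey squares nearer), with bars for the exact 95% Poisson interval of each count. The intronic TWIST2 region, the GTDC1 promoter in the ZEB2 window and the noncoding RNA promoter past ZEB1 stood apart at 77 to 111 fragments, and the other 20 lay between 21 and 51. The counts are raw, not scaled for the unlike backgrounds of the replicates.

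Of the 23 regions 10 were distal, which is 43.5% against 45.9% of all regions of both replicates. They belonged to 5 of the 8 genes (ZEB2 4, SNAI1 and TWIST2 2 each, SNAI2 and PRRX1 1 each), and 57.7% of all protein-coding genes had at least 1 in such a window. Their density had a median of 0.426 per 100 kb over the 8 genes, and 0.379 over all genes, so the EMT factors were close to other genes in this. Without replicate 1, which had fewer peaks, 17 distal regions were counted. The median fold enrichment of the 10 was 5.99, below the 6.71 of all distal regions. Apart from the TWIST2 intron and the ZEB2 region at −33.4 kb, which was in the top 16.7% of distal regions, the regions did not exceed the median of all distal regions.

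Of the 10 distal regions 7 held the AP-1 motif in the 201-base window, against 36.6% of all distal regions of both replicates. The 7 were at SNAI1 +45.1 kb, SNAI2 −2.14 kb, TWIST2 +16.3 kb, ZEB2 +162, −33.4 and −76.3 kb and PRRX1 +44.1 kb, so each of the 5 genes with a distal region had at least 1. With the peaks of replicate 2 alone the share was 52.9% of 17 regions, against 34.0% of all distal regions of that list. In the 13 regions within 1 kb of a TSS the motif occurred in 3, against 6.80% of all such regions. All 3 were in the ZEB2 window, at +2.43 and +6.21 kb and near an alternative TSS of GTDC1 at +199 kb. None of the promoter regions of SNAI2, TWIST1, TWIST2, ZEB1 and PRRX1 held it within 100 bp of its summit.

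An E-box of the form CACCTG, in either orientation, to which Snail and ZEB factors are known to bind, was in 1 of the 10 distal regions (SNAI2 −2.14 kb), against 7.0% of all distal regions. The TEAD motif GGAATG, in either orientation, was in 0 of the 10, against 28.7%. With the peaks of replicate 2 alone it was in 11.8% of 17 regions. These matches describe the letters under the summit and not which factor was bound.

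The genes that act with or around the EMT factors were then read at their promoters, in lists of genes with known ties to the factors. Among 15 genes of proteins that the factors work with, the co-repressors and the E proteins, 13 had a promoter peak in both replicates, or 86.7% against the 52.2% of all genes and a mean of 68.0% for genes of the same CpG groups. The highest were PRMT5, an arginine methyltransferase, with a mean fold enrichment of 14.5 ± 3.80 (SD, n = 2), EZH2, the catalytic subunit of Polycomb complex PRC2, with 12.8 ± 1.04, and RCOR1, the CoREST scaffold, with 9.40 ± 0.904. CTBP2 had no peak at its canonical TSS, and TCF4, an E protein that pairs with Twist, had one in replicate 1 only (3.81). With any annotated TSS all 15 genes had a promoter peak in both replicates, a setting without a computed share of all genes.

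Of 14 genes upstream of the factors, in TGF-β, Notch, hypoxia and NF-κB signalling among others, 13 had promoter peaks in both lists, or 92.9% against 52.2% of all genes and 69.4% in the same CpG groups. HIF1A, the hypoxia factor, had 15.8 ± 0.514, and the TGF-β receptor genes TGFBR2 and TGFBR1 had 13.8 ± 3.61 and 13.2 ± 0.450. HMGA2 had a peak in replicate 2 alone (4.30). All 9 genes of kinases, ubiquitin ligase subunits and a deubiquitinase that control the turnover of the factors had one (73.8% in the same CpG groups), led by BTRC (14.1 ± 1.09) and FBXO11 (13.6 ± 2.19), which encode ubiquitin ligase subunits, and GSK3B (11 ± 0.419), the kinase that marks SNAI1 for degradation. The named genes are the highest of each list. Over the genes with a peak in both replicates, the median fold enrichment was 8.12 for partner, 7.35 for upstream and 7.34 for turnover genes. These medians were below the 8.92 of all genes, as was the 7.06 of the EMT factors.

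On the epithelial side the counts were lower. Of 14 genes known to be repressed by the factors, most of them in cell junctions, 5 had promoter peaks in both replicates (35.7%, against 52.2% of all genes), whereas the other 9 had none in either. Those with one were PATJ, a polarity protein (8.30 ± 0.957), LLGL2 (7.30 ± 0.707), DSP, the desmosome protein desmoplakin (7.29 ± 0.267), OCLN and PKP3. CDH1, EPCAM, CRB3, CDH3, ST14, MARVELD3 and the claudin genes CLDN3, CLDN4 and CLDN7 had none, although the CpG counts of the 14 promoters had a median of 93 and promoters with such counts had a peak in 69.0% of cases on average. Of these genes, CDH1, EPCAM and CLDN4 are also among the epithelial markers read above, so their missing peaks are the same observation. Of 12 genes of factors that hold the epithelial state against EMT, 3 had a peak in both replicates (25%, against 52.2% of all genes and also 52.2% in the same CpG groups), namely KLF4 (11.1 ± 0.980), GRHL1 (10.6 ± 2.56) and FOXA1 (3.53 ± 0.517). GRHL2, GRHL3, OVOL1, OVOL2, ESRP1, ESRP2, ELF3, EHF and FOXA2 had none in either replicate at the canonical TSS. The number of these 12 genes with a peak was 5 within 3 kb or with any annotated TSS. At these settings the share of all genes was not computed, so 5 of 12 has no background beside it. The part that cell type or culture plays in these counts was not tested.

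**Figure D4:**
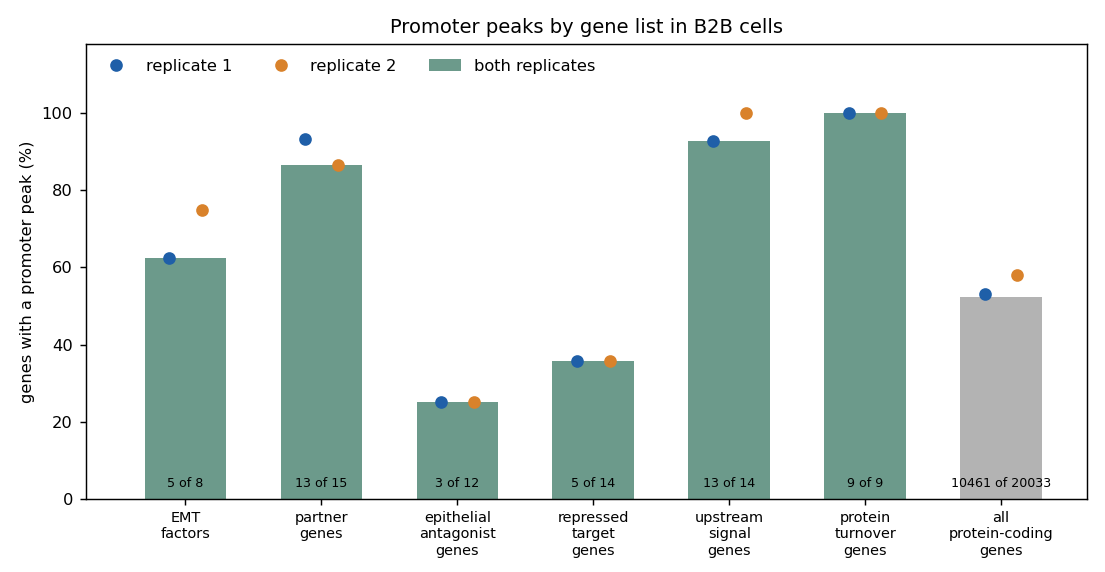
Percent of genes with a promoter peak in the EMT factor genes, in 5 lists of genes around them and in all protein-coding genes, with bars for both replicates and circles for replicate 1 (blue) and replicate 2 (orange). The lists of upstream, partner and turnover genes stood at 86.7% to 100%, the 2 epithelial lists at 25% and 35.7%, and all genes at 52.2%.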

How the data were processed

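Chromatin accessibility was profiled by ATAC-seq in 2 biological replicates of B2B cells. Per the labels and methods, the authors mapped reads to hg38 with Bowtie2 2.4.4, removed duplicates with their own code and called peaks on each replicate with MACS2 2.2.7.1, keeping all remaining reads. Tn5 shifting, handling of mitochondrial reads and the q limit are not given in the sources used here. The deposited lists hold, per peak, the summit, a fold enrichment (a linear ratio) and the −log10 of its p-value and of its q-value. They give no read totals, so depth was read from the fragments at the summits, solved from the fold enrichment and −log10 p, which came out whole for 99.7% and 99.8% of peaks.

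Only the autosomes and the sex chromosomes X and Y were kept, and peaks were merged into regions where they overlapped by at least 1 bp. Genes and TSSs came from GENCODE 44, and the 10 RefSeq promoter sequences listed for the 8 genes were identical to the hg38 reference used. CpG counts were put in 10 groups of equal size. Poisson intervals are exact, at 95%. The steps used Python 3.11.15 with matplotlib 3.10.9, scipy 1.17.1, pandas 2.3.3 and numpy 2.4.6, and were tested on simulated data.

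The genes were named by a rule: the 8 factors, the 3 genes of each list with the highest mean fold enrichment of the promoter peak, the neighbouring protein-coding genes with a promoter peak in both replicates, and the 3 strongest distal regions of each locus. A marker gene of the lists is not reported here. The other genes and regions were named after their values were seen. The 8 genes, the lists, the motifs and the alternatives were chosen with earlier results of these data known, among them the promoter peaks of some epithelial and mesenchymal markers and the frequency of the AP-1 motif.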

Additional observations from a re-analysis of the deposited data

How the results depend on the processing

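Across 25 results, 174 values were computed under alternatives, of which 150 were close to the main value and 24 moved, by the rule that counts stay within 1.5 times and other values within 1 SD of the replicates. The 10 promoter fold enrichments of a single replicate are not counted, since a mean of 2 values always lies within 1 SD of each. The PRRX1 promoter value within 500 bp is also missing from the tally, because replicate 1 had no peak there. The causes were not tested unless the setting gives one by construction. Longer windows hold more regions by construction. With 200 kb to either side, 38 regions had a peak in both replicates, 16 of them distal, and there were 7 at SNAI1, 5 at SNAI2, 3 at SNAI3, 2 at TWIST1, 6 at TWIST2 and 4 at PRRX1. With 50 kb, ZEB1 had 1. The E-box share was 12.5% of 8 distal regions with 50 kb, 6.25% of 16 with 200 kb and 20% of 10 over whole regions, against 1 of 10 in the main setting. The epithelial antagonist genes with a promoter peak numbered 5 within 3 kb and 5 with any annotated TSS, without a computed share of all genes. When either replicate was dropped, the other alone gave 11 to 17 distal regions, or 0.495 to 0.765 per 100 kb, with 3 to 6 regions at SNAI1, 3 to 5 at SNAI2, 1 to 2 at SNAI3, 1 to 2 at TWIST1 and 5 in either case at TWIST2. The AP-1 share was then 52.9% to 72.7% and the TEAD share 0% to 11.8%. No paired analysis was possible because there is no second condition to pair with. Sites under 16 fragments in replicate 1 or 13 in replicate 2 could not appear as peaks, which limits what a missing peak says.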

Other observations

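Of the 36 regions at the EMT factor genes, 13 were found in a single replicate, and they are not used in the counts for both replicates. The 11 of replicate 2 alone had a median fold enrichment of 5.21, against 6.34 in replicate 2 for the 23 regions of both replicates. How often a peak of like −log10 q (within 10%) had a partner in the other replicate depended on its strength. For the 11 peaks of replicate 2 it ranged from 23.9% for the ZEB2 peak at +3.14 kb to 86.9% for the SNAI1 peak at +51.1 kb. For the 2 peaks of replicate 1 alone, at TWIST2 +1.24 kb and ZEB2 −4.32 kb, it was 72.7%.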
